A study of Mus musculus with 7 samples.

Results

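Myokines are proteins that muscle cells secrete and that act on the muscle itself or on other organs. The myokines described here lie outside the chemokine families: FNDC5, the membrane precursor of irisin, erythroferrone (encoded by Erfe, formerly Fam132b), FGF21, IL-15, BDNF, SPARC, follistatin-like 1 (Fstl1), osteocrin (Ostn, also called musclin) and meteorin-like (Metrnl). Their members were all non-control probes whose gene name on the array is Fndc5, Fam132b, Fgf21, Il15, Bdnf, Sparc, Fstl1, Ostn, Metrnl or Erfe. Of these 10 names 9 were present, since the array carries erythroferrone under its older name Fam132b, and they accounted for 12 of 39429 probes. The rule used names only and no measured value.

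The cells were C2C12, an established line of mouse myoblasts that can be differentiated into multinucleated myotubes. Recipient cells were incubated for 24 h with exosomes, vesicles of endosomal origin, released by other C2C12 cultures. In EXO-Palm (3 arrays) the donor cultures had been treated with palmitate at 0.5 mmol/l coupled to BSA, and in EXO-BSA (4 arrays), the control, with BSA alone. Donor medium was taken for exosome purification 9 h after the end of the palmitate treatment. The labels, which write the groups Exo-BSA and Exo-Palm, call the arrays biological replicates and the cell type myoblast, while the study speaks of myotubes, and they give no difference in genotype. Their cell line field runs from C2C12 to C2C18 over the 7 arrays, with C2C12 as the source of each. One-colour Agilent arrays were hybridised with Cy3-labelled material from 100 ng of RNA, so the comparison asked how exosomes of palmitate-treated muscle cells changed the transcripts of recipient muscle cells.

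A level below is the log2 intensity of a probe minus the 75th percentile of its array, so 0 is that percentile, which lay between 549.4 and 1621 intensity units. A probe was called well above background by the scanner software for 48.5 to 70.3% of the probes per array. No spot was saturated. The arrays lay on 4 slides, with EXO-BSA replicates 1 and 2 and EXO-Palm replicate 1 on slide 1, EXO-BSA replicate 4 and EXO-Palm replicate 3 on slide 3, and 1 array on each of the others. Array EXO-BSA replicate 3 was read with a later version of the scanner software. Of 14 markers of myotubes tested, all were well above background on all 7 arrays, among them Myog, Myh3 and Acta1, and their mean level lay between 4.82 and 5.0 in EXO-BSA and between 4.60 and 4.87 in EXO-Palm. In EXO-Palm 11 of the 14 were lower and 3 higher (11373 of all 21589 tested probes were lower). Their median difference was -0.16, and 0 passed an adjusted p of 0.05 in limma. Myh8 (-0.65) and Myh3 (-0.46) were lower on every EXO-Palm array than on any EXO-BSA array, as were 5.87% of all tested probes. Of 8 tested myoblast markers 5 were lower and 3 higher, with a median difference of -0.06, and 0 passed. Among 9 tested proliferation markers, including Mki67 and Ccnb1, all were higher in EXO-Palm and 6 passed an adjusted p of 0.05 in limma, with mean levels over the list of 10 of -1.67 to -1.53 in EXO-BSA and -0.04 to 1.18 in EXO-Palm. These markers moved with the groups in which the myokines were compared, and their part in any difference below was not tested. The arrays measured RNA of whole cultures, in which fewer cells of a type and less RNA per cell cannot be told apart.

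The probes that the results turn on are 60 bases long. The first 30 bases of each are shown 5′ to 3′ as the array files give them, in lower case because no base is singled out. They show which stretch of each transcript was measured, and that both probes of Fam132b, and both of Sparc, read different stretches.
Fam132b A_51_P121179: tgtgtcatattgctaggcagaatatattta
Fam132b A_55_P2156022: ggggctggagaacagcagcgagctcttcac
Il15 A_52_P15461: tgcaggttattttacatgagtacagtaaca
Fndc5 A_52_P213696: ccaaggctccttaagggaggtccttacctc
Fstl1 A_55_P2143517: gagtggttttgaaattgcatttgtatttgc
Sparc A_55_P2046807: acagcaatgtgaagagcttgacaagtcttt
Sparc A_55_P2046812: ggctgttccgcctggggataaggtgctaac

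On mm9, the build of the array annotation, the Fam132b probes lie on the plus strand at chr1:93270468-93270527 and chr1:93267977-93268036, and start at bases 2488 and 914 of the transcript. The Il15 probe lies on the minus strand at chr8:84858403-84858462, that of Fndc5 on the plus strand at chr4:128821749-128821808, and that of Fstl1 on the plus strand at chr16:37836492-37836551. The Sparc probes lie on the minus strand at chr11:55208003-55208061 and chr11:55208939-55208998. The array annotation does not say whether these stretches are coding.

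Fam132b was higher with EXO-Palm at both probes, and Il15, Fndc5 and Fstl1 were lower, each with no overlap between the groups. None of these differences passed an adjusted p of 0.05 over all 21589 tested probes. Testing required a call well above background on 75% or more of either group's arrays, which was met by 10 of the 12 myokine probes, of 8 genes. Of the 10, 0 passed in limma, where 115 of all tested probes did (0.533%), and 0 passed in the methods' test after the same adjustment (equal variances, no moderation). At an unadjusted p of 0.05, 5 of the 10 passed in limma (2 higher and 3 lower, against 10% of all tested probes) and 5 in the methods' test. The groups did not overlap at 5 of the 10, against 11.3% of all tested probes, with 2 of them higher (5.40% of all) and 3 lower (5.87%). For 2 of these 5, Fam132b A_55_P2156022 and Il15, the filter was met in the brighter group alone. Among the 8 myokine probes well above background on all 7 arrays, 3 had groups that did not overlap, against 12.1% of all such probes. The median difference of the 10 was -0.19, and that of all tested probes was -0.02. The count of 115 rested on single arrays: it was 0 without EXO-BSA replicate 1, 44 without replicate 2, 21 without replicate 3, 68 without replicate 4, 7 without EXO-Palm replicate 1, 202 without replicate 2 and 27 without replicate 3, while the count for the myokines was 0 in each case.

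**Figure D1:**
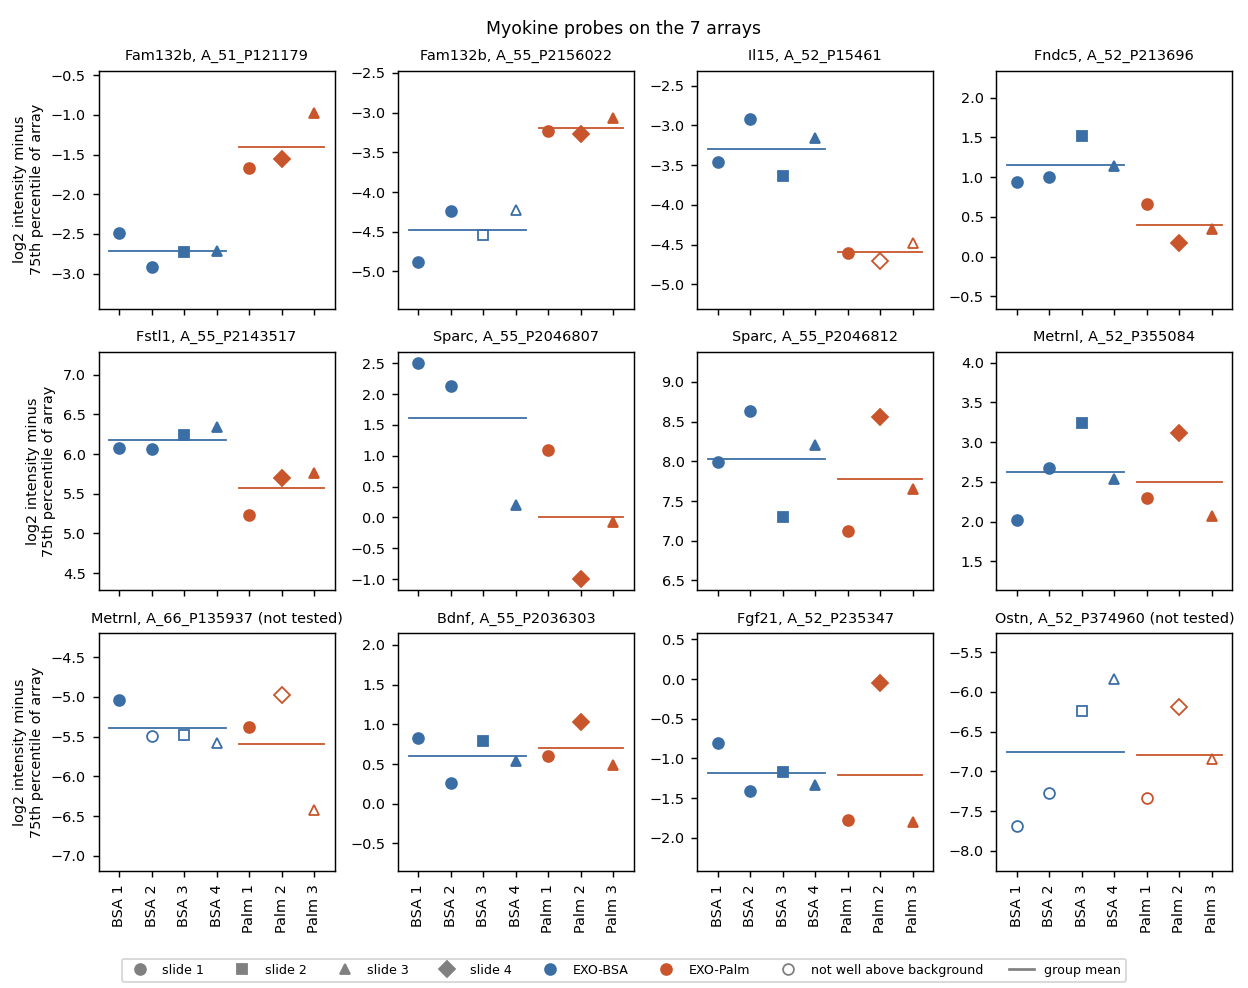
Level of each of the 12 myokine probes (y axis, log2 intensity minus the array's 75th percentile) on the 4 EXO-BSA arrays (blue) and 3 EXO-Palm arrays (orange), with symbols for the slide, open symbols where the probe was not well above background, and lines for group means. Each panel has its own y axis, and the outlying Sparc A_55_P2046807 spot of EXO-BSA replicate 3 is left out. Both Fam132b panels show EXO-Palm above EXO-BSA, and the Il15, Fndc5 and Fstl1 panels show it below.

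Erythroferrone is a hormone of the C1q/TNF-related family. Released by erythroblasts, it lowers hepcidin in the liver. It is also released by muscle, where it has been called myonectin and linked to fatty acid uptake. Probe A_51_P121179 is printed 10 times on the array. Its levels were -2.49, -2.91, -2.72 and -2.71 on EXO-BSA replicates 1 to 4 and -1.67, -1.55 and -0.98 on EXO-Palm replicates 1 to 3. All EXO-Palm arrays were above all EXO-BSA arrays, by at least 0.82, and the probe was well above background on every array. In intensity units this was 116.2 to 210.0 against 225.9 to 514.3. The mean was -2.71 ± 0.17 (SD, n = 4) in EXO-BSA and -1.40 ± 0.37 (SD, n = 3) in EXO-Palm, a difference of 1.31 with SE 0.235 and a 95% interval of 0.77 to 1.85, or 2.48-fold. limma gave an adjusted p of 0.0606, rank 142 of the tested probes. The exact permutation test over the 35 ways of parting 7 arrays gave p = 0.0286 (2-sided), the smallest this design allows.

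The 10 spots of this probe show how far a single spot can be trusted at this intensity. Within an array their SD was between 0.22 and 0.46 on the log2 scale, and the SE of the mean of 10 spots was between 0.07 and 0.15. Single spots of different groups overlapped, since the highest spot of EXO-BSA replicate 4 was at -1.86 and the lowest of EXO-Palm replicate 1 at -2.12. The array means did not.

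The other Fam132b probe, A_55_P2156022, is printed once and was dimmer. Its levels were -4.88, -4.24, -4.54 and -4.23 in EXO-BSA and -3.23, -3.27 and -3.06 in EXO-Palm, so the groups did not overlap here either. It was well above background on EXO-BSA replicates 1 and 2 and on all 3 EXO-Palm arrays. It met the filter through EXO-Palm alone, and the fold, interval and p values below rest partly on EXO-BSA values near background. The mean was -4.47 ± 0.31 (SD, n = 4) in EXO-BSA and -3.19 ± 0.11 (SD, n = 3) in EXO-Palm, and the difference was 1.28 (SE 0.227, 95% interval 0.77 to 1.80, 2.44-fold) with an adjusted p of 0.0581 in limma and an exact permutation p of 0.0286. Within slide 1 the EXO-Palm array exceeded the mean of both EXO-BSA arrays by 1.03 at A_51_P121179 and 1.33 at A_55_P2156022, and within slide 3 by 1.74 and 1.16. With slide as a random block the adjusted p in limma was 0.0375 and 0.0366, with slide as a fixed block it was 0.173 and 0.193, and over all alternatives with an adjusted p it ranged from 0.0261 to 0.316 and from 0.0366 to 0.31. With normexp background correction and quantile normalisation together, the difference was 0.87 at A_51_P121179 and 0.64 at A_55_P2156022, and with quantile normalisation alone it was 1.30 and 1.24.

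**Figure D2:**
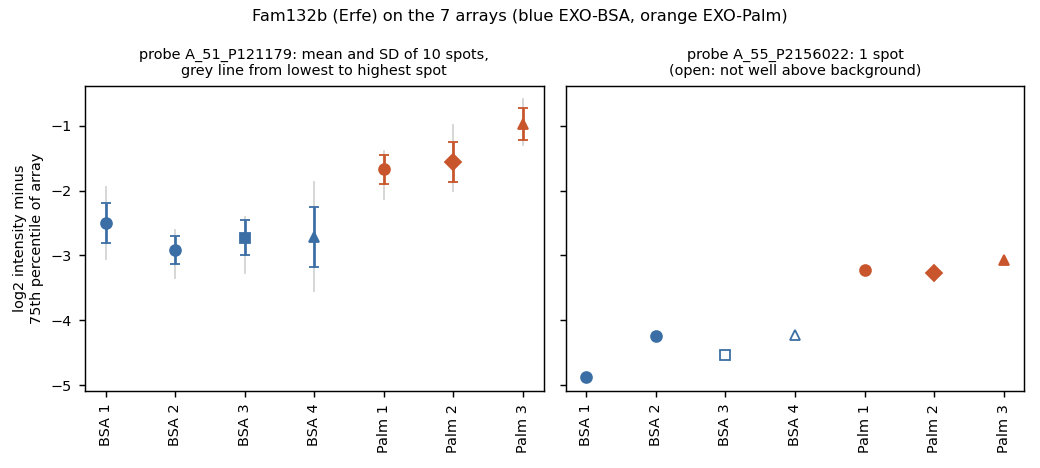
Fam132b (Erfe) on the 7 arrays, with the level (log2 intensity minus the array's 75th percentile) on the y axis and the arrays on the x axis. Left, mean and SD of the 10 spots of A_51_P121179 with a grey line from the lowest to the highest spot; right, the single spot of A_55_P2156022, open where it was not well above background. On both sides all 3 EXO-Palm means or spots lie above all 4 of EXO-BSA.

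IL-15 is a cytokine of the common gamma chain family that muscle expresses at high levels and that sustains natural killer and memory T cells. Its single probe had levels of -3.46, -2.92, -3.64 and -3.15 in EXO-BSA and -4.60, -4.70 and -4.48 in EXO-Palm. All EXO-Palm arrays were below all EXO-BSA arrays, by at least 0.84. The probe was well above background on all 4 EXO-BSA arrays but only on replicate 1 of EXO-Palm, so the EXO-Palm values are close to background. It met the filter through EXO-BSA alone, and the fold, interval and p values below rest on those dim values. The means were -3.29 ± 0.32 (SD, n = 4) and -4.60 ± 0.11 (SD, n = 3), and the difference was -1.30 (SE 0.231, 95% interval -1.83 to -0.78), 2.47-fold lower in EXO-Palm. limma gave an adjusted p of 0.0581 and the exact permutation test p = 0.0286. Il15 was lower within slide 1 (difference -1.41) and within slide 3 (-1.33), and its limma adjusted p was 0.0335 with slide as a random block and 0.13 with slide as a fixed block, within a range of 0.0335 to 0.342 over the alternatives. With normexp correction and quantile normalisation together the difference was -0.62, and with quantile normalisation alone it was -1.36.

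FNDC5 is a transmembrane protein of muscle whose cleaved ectodomain is irisin, and its transcription is known to follow the coactivator PGC-1α. The levels of Fndc5 were 0.94, 1.00, 1.51 and 1.14 in EXO-BSA and 0.66, 0.17 and 0.35 in EXO-Palm, and the probe was well above background on every array. All EXO-Palm arrays were lower, with a gap of 0.28 between the groups. The means were 1.15 ± 0.26 (SD, n = 4) and 0.40 ± 0.25 (SD, n = 3). The difference of -0.75 (SE 0.229, 95% interval -1.27 to -0.23, 1.68-fold lower) had an unadjusted p of 0.01 and an adjusted p of 0.298 in limma, and an exact permutation p of 0.0286. It was -0.31 within slide 1 and -0.78 within slide 3.

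Follistatin-like 1 is a secreted glycoprotein related to SPARC and follistatin that binds DIP2A and BMP ligands. Fstl1 had levels of 6.07, 6.06, 6.24 and 6.34 in EXO-BSA and 5.23, 5.70 and 5.77 in EXO-Palm, so its groups did not overlap and EXO-Palm was lower by at least 0.30. The means were 6.18 ± 0.13 (SD, n = 4) and 5.57 ± 0.29 (SD, n = 3). The difference was -0.61 (SE 0.214, 95% interval -1.10 to -0.13, 1.53-fold lower), with an unadjusted p of 0.0195 and an adjusted p of 0.382 in limma and an exact permutation p of 0.0286. Within slide 1 it was -0.83 and within slide 3 it was -0.57.

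SPARC, or osteonectin, is a collagen-binding matricellular protein. Its probes gave different pictures. At A_55_P2046812 the levels were 7.99, 8.64, 7.29 and 8.21 in EXO-BSA and 7.12, 8.55 and 7.65 in EXO-Palm, and the groups overlapped. The mean was 8.03 ± 0.56 (SD, n = 4) against 7.77 ± 0.73 (SD, n = 3), with a difference of -0.26 (SE 0.406, 95% interval -1.18 to 0.67, limma adjusted p 0.867). The EXO-Palm array was lower within slide 1 (difference -1.19) and within slide 3 (-0.56), and EXO-Palm replicate 2 and EXO-BSA replicate 3, each alone on its slide, were the second highest and second lowest of the 7. With slide as a block the difference was -0.92 (limma adjusted p 0.411, in a range of 0.411 to 1 over the alternatives).

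At A_55_P2046807 the level was 2.51, 2.13 and 0.20 on EXO-BSA replicates 1, 2 and 4 and 1.09, -1.003 and -0.07 in EXO-Palm. The spot of EXO-BSA replicate 3 was marked as an outlier and left out of the fit. The 3 arrays of slide 1, of both groups, were the 3 highest. The difference was -1.61 (SE 0.706, 95% interval -3.25 to 0.03, limma adjusted p 0.508), -0.82 with slide as a block, and the exact permutation p was 0.2 over 3 against 3 arrays, where the smallest possible is 0.1. The SD within the groups was 1.24 and 1.05, larger than at any other tested myokine probe.

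The differences of Metrnl, Bdnf and Fgf21 over all arrays were smaller than their standard errors, and their intervals still allow sizeable differences in either direction. Meteorin-like is a secreted factor raised in muscle by exercise and in fat by cold. At A_52_P355084 its levels were 2.02, 2.68, 3.25 and 2.53 in EXO-BSA and 2.29, 3.12 and 2.07 in EXO-Palm, and the groups overlapped throughout. The difference was -0.13 (SE 0.351, 95% interval -0.93 to 0.67, limma adjusted p 0.93), and its sign turned with normexp correction and quantile normalisation together (0.04), in the authors' processed values (0.02), without EXO-BSA replicate 3 (0.08) and without EXO-Palm replicate 3 (0.08). The other Metrnl probe, A_66_P135937, was well above background on replicate 1 of each group only and was not tested, with levels from -5.58 to -5.04 in EXO-BSA and from -6.43 to -4.97 in EXO-Palm.

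BDNF, a neurotrophin that muscle also makes, was measured at 0.83, 0.27, 0.79 and 0.54 in EXO-BSA and 0.60, 1.03 and 0.49 in EXO-Palm. The difference was 0.10 (SE 0.236, 95% interval -0.44 to 0.64, limma adjusted p 0.917), so a change of more than 0.64 in either direction lies outside the interval. It was -0.01 without EXO-BSA replicate 2 and -0.06 without EXO-Palm replicate 2.

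FGF21 is a hormone of liver and stressed muscle that signals through FGF receptors with β-klotho. Fgf21 was at -0.81, -1.41, -1.17 and -1.33 in EXO-BSA and -1.78, -0.05 and -1.80 in EXO-Palm. EXO-Palm replicate 2 was the highest of all 7 arrays and the other two EXO-Palm arrays were the lowest, so the SD was 1.01 in EXO-Palm against 0.27 in EXO-BSA. The difference was -0.03 (SE 0.426, 95% interval -0.997 to 0.94, limma adjusted p 0.991). It was -0.67 within slide 1 and -0.47 within slide 3, and -0.58 with slide as a block (limma adjusted p 0.574, in a range of 0.478 to 1 over the alternatives). Without EXO-Palm replicate 2 it was -0.61, and without EXO-BSA replicate 1, EXO-Palm replicate 1 and EXO-Palm replicate 3 it turned to 0.10, 0.26 and 0.27. Osteocrin is a small secreted peptide of muscle and bone that competes for natriuretic peptide clearance. Its probe was well above background on 0 of 7 arrays, in both groups, so no fold is given, and at this signal a difference was not detectable.

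**Figure D3:**
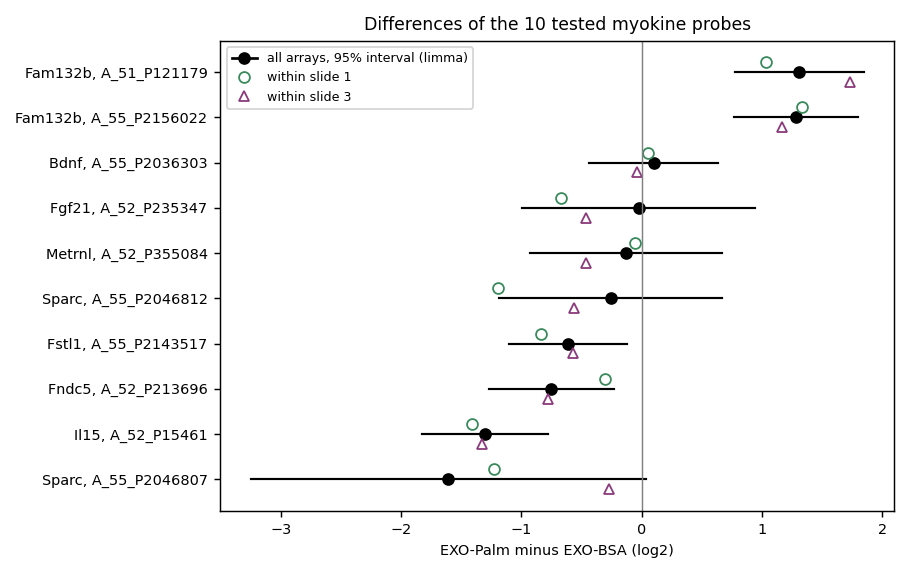
Difference of EXO-Palm minus EXO-BSA (x axis, log2) at each of the 10 tested myokine probes (y axis), as the limma estimate over all arrays with its 95% interval (black), and as the difference within slide 1 (green circle, 1 EXO-Palm against the mean of 2 EXO-BSA arrays) and within slide 3 (purple triangle, 1 against 1). The within-slide values have no error. Both lie on the side of the limma estimate at 9 of the 10 probes, Bdnf being the exception. The limma estimate uses these same arrays, and where the groups do not overlap the signs must be the same. The count is therefore no separate check.

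The lists around the myokines showed 0 genes past an adjusted p of 0.05 in limma, and 0 in the methods' test after adjustment and 8 before it, where 9.76% of all tested probes passed. Of the 24 receptors and binding partners on the array 16 were tested, 3 passed an unadjusted p of 0.05 in limma (10% of all tested probes did), and the median difference was -0.18. Of the receptor chains for IL-15, Il15ra differed by 0.36, Il2rb by -0.18 and Il2rg by -0.35. Fgfr1, a receptor for FGF21, differed by 0.43, with levels of 3.83, 3.68 and 2.19 on EXO-BSA replicates 1 to 3. The value of EXO-BSA replicate 4 was left out. EXO-Palm was at 3.59, 3.57 and 3.82, so the sign rested on EXO-BSA replicate 3. The other FGF receptors tested, Fgfr2, Fgfr3 and Fgfr4, differed by -0.17, -0.19 and -0.46. The co-receptor Klb was well above background on no array. Itgav and Itgb5, integrin chains used by irisin, differed by -0.43 and -0.10, and Dip2a, which binds follistatin-like 1, by 0.13. These differences had limma adjusted p from 0.656 to 0.901. The 3 tested genes furthest from 0 were Ntrk2, Sorcs2 and Sort1. Ntrk2, the BDNF receptor TrkB, was at -1.60 ± 0.64 (SD, n = 4) in EXO-BSA and -2.82 ± 1.01 (SD, n = 3) in EXO-Palm, a difference of -1.22 (SE 0.501, limma adjusted p 0.466), with overlapping groups, and the difference was -0.69 without EXO-Palm replicate 3. Ntrk2 was well above background on 4 EXO-BSA and 2 EXO-Palm arrays, so it met the filter through EXO-BSA alone. Sorcs2 and Sort1, sortilin-family receptors for the precursor, differed by -0.83 (SE 0.26, limma adjusted p 0.319) and -0.64 (SE 0.259, limma adjusted p 0.464), and their groups did not overlap. With normexp correction and quantile normalisation together Sorcs2 was at -0.51, and in the authors' processed values at -0.50. Ngfr, which also binds BDNF and its precursor, differed by -0.04 (limma adjusted p 0.973).

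Of 31 relatives of the myokines on the array 19 were tested, 5 passed an unadjusted p of 0.05 in limma (against 10% of all), and the median difference was -0.44. Fgf23, an endocrine FGF like FGF21, had levels of 3.78, 2.91, 3.41 and 2.51 in EXO-BSA and 1.58, 1.81 and 1.87 in EXO-Palm. The groups did not overlap, and the difference of -1.40 (SE 0.311) had a limma adjusted p of 0.133. Fndc1, which shares fibronectin type III domains with FNDC5, differed by -1.28 (SE 0.405, limma adjusted p 0.323) and Smoc2, a SPARC-related protein, by -0.96 (SE 0.425, limma adjusted p 0.503), both with overlapping groups. Smoc2 was at -0.55 without EXO-Palm replicate 3. Of the 19, 2 were higher without overlap, where 5.40% of all tested probes were. These were C1qtnf5, of the family of erythroferrone, by 0.70 (SE 0.211, limma adjusted p 0.289) and Metrn, the relative of Metrnl, by 0.40 (SE 0.203, limma adjusted p 0.562). Lower without overlap were 3, Fgf23 and 2 others, against 5.87% of all tested probes. C1qtnf3, also of the erythroferrone family, differed by -0.92 (SE 0.246, limma adjusted p 0.22) and Fndc3b by -0.61 (SE 0.227, limma adjusted p 0.424). Without EXO-Palm replicate 2 the difference of Fndc1 was -1.78, with an adjusted p of 0.0415 in a range of 0.0415 to 0.882 over the alternatives.

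Of 13 upstream regulators 11 were tested, 1 passed an unadjusted p of 0.05 in limma (against 10% of all), and the median difference was 0.01. That gene was Ppargc1a, which encodes PGC-1α. It was at -3.49 ± 0.16 (SD, n = 4) in EXO-BSA and -4.15 ± 0.11 (SD, n = 3) in EXO-Palm, well above background on 4 and 2 arrays. Its groups did not overlap, but it met the filter through EXO-BSA alone. The difference was -0.66 (SE 0.194, limma adjusted p 0.278, exact permutation p 0.0286), and with normexp correction and quantile normalisation together it was -0.30. Foxo1 differed by -0.39 (limma adjusted p 0.641, and 0.02 in the authors' processed values) and Ddit3, the stress factor CHOP, by 0.35 (limma adjusted p 0.62). Atf4, which drives Fgf21 under stress, differed by 0.13.

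Of 13 secretion and processing proteases and their partners 10 were tested, 0 passed an unadjusted p of 0.05 in limma, and the median difference was -0.37. The furthest from 0 were Serpinh1, a collagen chaperone, at 0.90 (SE 1.45, limma adjusted p 0.87), Plat, tissue plasminogen activator, at -0.81 (SE 0.484, limma adjusted p 0.624) and Pcsk6, a proprotein convertase, at -0.68 (SE 0.358, limma adjusted p 0.584). The value of Serpinh1 rested on EXO-BSA replicate 3, where its level was -1.88 against 3.90 to 4.75 on the other EXO-BSA arrays, and the difference was -0.68 without that array and -0.50 with slide as a block. Plat was at -0.26 without EXO-Palm replicate 3 and at -1.22 without EXO-Palm replicate 1.

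**Figure D4:**
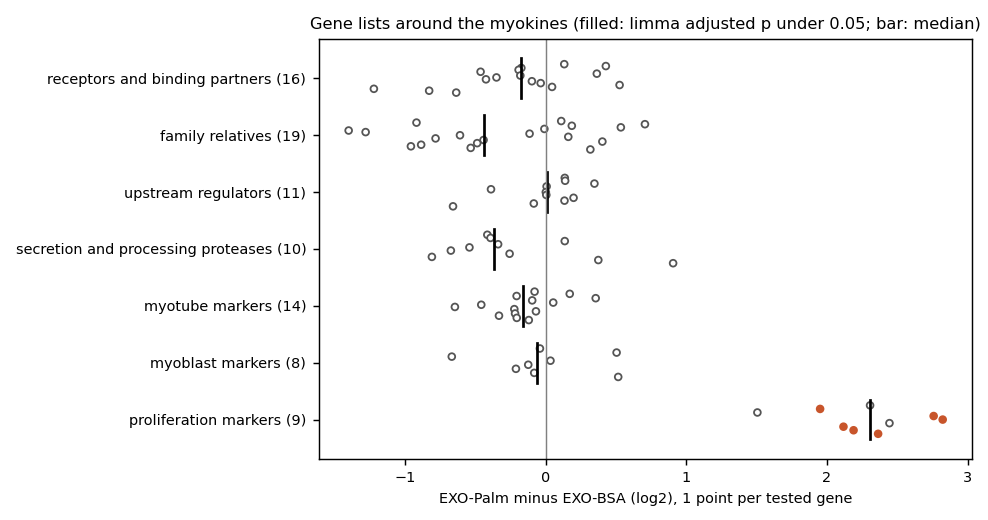
Difference of EXO-Palm minus EXO-BSA (x axis, log2) for each tested gene of the 4 lists around the myokines and of the myotube, myoblast and proliferation markers (y axis, with the number of tested genes), filled where the limma adjusted p was under 0.05 and with a bar at each list's median. Filled points occur among the proliferation markers only, 6 of 9, whose median is 2.31.

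For each tested myokine gene the 3 genes most like it were sought by Pearson's r over the arrays after each group's mean had been subtracted. All 7 arrays entered unless a spot of the other gene had been left out as an outlier, when r rested on fewer. They are the highest of all tested genes and are given as a description. For Fam132b they were Nr1h3, Gm1008 and Ell (r from 0.987 to 0.994), and their own differences between the groups were 1.08 (limma adjusted p 0.154), -1.24 (limma adjusted p 0.133) and 0.00 (limma adjusted p 0.999). For Il15 they were Zfp661, Bcl2l1 and Oraov1 (0.993 to 0.998), for Fndc5 Fkbp7, Gm4938 and Mrpl50 (0.964 to 0.970), and for Fstl1 Cyb561d2, Actb and Pisd (0.996 to 0.998). For Sparc at A_55_P2046812 they were Map3k7ip1, Rhoj and Acta1 (0.988 to 0.997). For Metrnl they were Gm6812, Phf1 and AU024180 (0.994 to 0.996), for Bdnf Kirrel, rp9 and Lfng (0.984 to 0.988), and for Fgf21 Myst3, Cmtm6 and Zmiz1 (0.990 to 0.9996).

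The other markers were checked for cells that a C2C12 culture should not hold. Of 5 adipocyte markers 0 were tested. Fabp4, Lep and Plin1 were each well above background on 2 EXO-BSA arrays and 1 EXO-Palm array, Adipoq on 1 EXO-BSA array and Cfd on none. Of 5 hepatocyte markers 4, Alb and Apoa1 among them, were well above background on no array. The other, Serpina1a, was well above it on 4 EXO-BSA and 2 EXO-Palm arrays and met the filter through EXO-BSA alone. Serpina1a differed by -0.30 (limma adjusted p 0.862), with overlap. Of 3 tested macrophage markers all were higher in EXO-Palm and 0 passed the adjusted threshold, with Cd68 and Ptprc too dim to be tested. Cd14 differed by 1.05 (limma adjusted p 0.219) without overlap. Csf1r differed by 0.45 (limma adjusted p 0.613) and Emr1 by 0.58 (limma adjusted p 0.689), both with overlap. Emr1 was well above background on only 2 of the EXO-Palm arrays. Of 5 endothelial markers, Kdr, Vwf and Pecam1 were well above background on all 7 arrays, with differences of -0.07, -0.12 and -0.03 (limma adjusted p from 0.948 to 0.978), and Cdh5 and Tek on none. Snap25 was the 1 neuronal or glial marker tested (-1.61, limma adjusted p 0.0802).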

How the data were processed

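RNA of C2C12 cells was measured on 7 one-colour arrays, 4 of EXO-BSA and 3 of EXO-Palm. The authors deposited, per array, the Feature Extraction output, in which the processed signal is a background-subtracted, spatially corrected intensity without scaling across arrays. They also deposited 1 processed matrix on the log2 scale, used here as an alternative and matched to the spots by order. The labels name Feature Extraction 9.1 and limma. The file headers give version 10.7.3.1, and 11.5.1.1 for EXO-BSA replicate 3.

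Here, processed intensities were taken to log2, and each array's 75th percentile over its non-control spots was subtracted. Spots marked as non-uniform or population outliers were left out, and the spots of a probe were averaged. The filter kept probes called well above background on 75% or more of either group's arrays, 21589 of 39429. They were tested with limma 3.58.1 in R 4.3.3 (with version 1.17.8 of data.table and 2.0.0 of jsonlite) and Benjamini-Hochberg adjustment over all of them. The code was tested on simulated data. A gene with several probes is given in the lists by its brightest. Gene names are those of the array, and the transcripts of all 9 genes were found in RefSeq (GRCm38.p6), which names Fam132b as Erfe. Probe positions are on mm9. The study's methods name Agi4x44PreProcess and limma for the arrays and, for its results in general, Student's test at p under 0.05. The settings used for the arrays are not given in the sources used here.

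The genes and lists were chosen with earlier results of these data known. Named were all myokine probes, in each list the 3 genes furthest from 0 and any past the threshold, and the 3 genes most like each myokine. Receptors named beyond these were chosen for their role, and some markers, C1qtnf3, C1qtnf5, Fndc3b and Metrn after their values were seen. Alternatives covered normexp with quantile normalisation (offset 50, on the median signal, since the mean signal is not a column of every file), scaling, filters, slide and replicate blocks, array weights, trended variances, the methods' test (unmoderated) and each array left out. The number of arrays limits the precision.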

Additional observations from a re-analysis of the deposited data

Results flagged for a closer look

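Of 23 sets of 4 EXO-BSA values examined, 1 held an array far from the others, where chance gives about 5%. At Serpinh1 A_51_P287069 the levels were 3.90, 4.75, -1.88 and 4.74 on EXO-BSA replicates 1 to 4, and 3.97, 3.32 and 4.05 in EXO-Palm. The gap of replicate 3 to its nearest neighbour was 0.873 of the group's range, above the 95% limit of Dixon's test for 4 values. Without that replicate the difference of Serpinh1 was -0.68, against 0.90 with it.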

How the results depend on the processing

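The differences of Fam132b, Il15, Fndc5, Fstl1 and Sparc A_55_P2046807 kept their sign under each alternative in which the probe was tested. For Fam132b, Il15, Fndc5 and Fstl1, whose groups did not overlap, many alternatives could not have turned it. Leaving out an array, slide as a fixed block and other filters or tests are among these. The number of myokine probes past the adjusted threshold, 0, became 1 with only probes well above background on all 7 arrays (Fam132b A_51_P121179), 3 with slide as a random block (both Fam132b probes and Il15, against 0 with slide as a fixed block), 1 with trended and robust variances (Fam132b A_51_P121179) and 5 with the methods' t-test unadjusted, and it was 0 with each single array left out. For the 4 lists the count of 0 became 8 with the t-test unadjusted and was 0 to 1 with single arrays left out. Over all probes the count of 115 became 0 without a probe filter, 40 with probes well above background on at least 1 array, 181 with slide as a random block, 173 with trended and robust variances, 0 with the t-test adjusted, 2108 with it unadjusted and 0 to 202 with single arrays left out. Arrays with the same replicate number had deviations from their group means that correlated at 0.121, -0.151 and -0.147. These values cannot settle whether the replicates were run as pairs. With the replicate block, which drops EXO-BSA replicate 4 for want of a partner, 0 of all probes and 0 myokine probes passed. Signs reversed for Metrnl A_52_P355084 with normexp and quantile normalisation together (0.0354) and in the authors' processed values (0.0219), for Foxo1 in the latter (0.0188) and for Serpinh1 with slide as a block (-0.50). With single arrays left out the difference ran from -0.44 to 0.0836 for Metrnl, from -0.61 to 0.27 for Fgf21, from -0.0597 to 0.21 for Bdnf, from -0.65 to 0.0684 for Sparc A_55_P2046812 and from -0.68 to 1.53 for Serpinh1. The cause was not tested. Signal over background limits the Il15 and Fam132b A_55_P2156022 values, which were near background in one group, and leaves Ostn and Metrnl A_66_P135937 without a test. It also limits Ntrk2, Il2rg and Ppargc1a, which met the filter through EXO-BSA alone.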
